A study of Ovis aries with 12 samples.

Results

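The step across birth was examined in the left ventricle of sheep by setting 3 newborn lambs at postnatal day 5 (P5) against 3 fetuses near term (F140). These are 6 of the 12 hearts that were hybridised to a miRNA microarray, the other 6 being 3 fetuses at F91 and 3 older lambs at P173. The array carried 3098 sequences, and the 3091 of them with a value in the deposited table were all compared, without a choice by level or by outcome. They reduce to 2190 names, of which 907 are anonymous sequences that carry a serial number in place of a miRNA name.

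All animals were Merino sheep, unmanipulated controls without a transgene or a drug, and the 6 compared here were females. The titles give the fetal group as 141 days of gestation, where the study writes F140. All 3 P5 lambs were twins, as was F140 replicate 2, whereas F140 replicates 1 and 3 were singletons, so twinning and age can largely not be told apart. P5 replicates 1 and 2 carry array names that are alike up to the last letter, so they may be co-twins, although no label says this. RNA was taken from frozen pieces of whole ventricle wall, a mixture of cardiomyocytes, vessels, fibroblasts and blood, in which fewer cells of a type and less RNA per cell cannot be told apart. The 3 replicates of an age are separate animals.

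As a sum, the defining miRNA of heart muscle were bright in every heart, though not each of them was. Summed over 18 names, miR-1, miR-133a, miR-133b, miR-208a, miR-208b and miR-499 read 67730 to 81988 units at F140 and 52482 to 65627 units at P5, in normalised fluorescence units on a linear scale. Of these, miR-208a read only 10, 13 and 27 units at F140 and 5, 3 and 0 at P5. A variant of miR-208b read only 15, 20 and 7 units at P5. The heart muscle sum counts overlapping sequences more than once, such as miR-499 and miR-499-5p. Its members did not move together, since miR-1 and miR-499 were lower at P5 while miR-133a-3p and miR-133b were higher. miR-206, which marks skeletal muscle, read 0 to 2 units at F140 and 0 to 9 at P5. Sums over fibroblast miRNA (4971 to 7687 and 2584 to 4502 units) and over leukocyte miRNA (466 to 777 and 303 to 416 units) were also lower at P5, and like the heart muscle sum did not overlap between the ages. The same held for endothelial miR-126 (6045 to 8716 and 2202 to 4479 units), where nearly all of the signal was the 3p arm given below. Red cell miRNA (4064 to 4810 and 3577 to 5657 units) and smooth muscle miRNA (9114 to 10554 and 6776 to 9273 units) overlapped. The part of cell composition in the results was not tested. Over the 775 sequences with a mean of 100 units or more, correlations ran from 0.937 to 0.971 within P5, from 0.806 to 0.905 within F140 and from 0.658 to 0.875 across birth.

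A mature miRNA is a short RNA that guides a silencing complex to messenger RNA, mostly by pairing of its seed, the bases from the second to the eighth. miRNA that share a seed can bind many of the same targets and are grouped as a family, and several families are also transcribed together from clusters. At birth the placenta is lost from the circulation, blood oxygen rises and the heart turns from carbohydrate towards fatty acids as fuel. In sheep, cardiomyocytes largely leave the cell cycle before birth, unlike in the mouse, in which they do so in the first days of life.

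The sequences that carry the largest groups of change are given as the array targets them, 5′ to 3′. Bases at the seed positions of the spotted sequence are in capitals. The miR-208b variant lacks the first base of the miRNA, so its capitals are not the seed. For anonymous sequences the capitals mark position only. The first set begins with the seed shared by the miR-15 and miR-424 families. miR-424-5p and miR-322-5p are names of one miRNA in different species, and PC-5p-9731_453 is an anonymous sequence that holds all 20 bases of the spotted variant of miR-195.
miR-424-5p: cAGCAGCAauucauguuuuga
miR-322-5p: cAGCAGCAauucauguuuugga
PC-5p-9731_453: uAGCAGCAcagaaauguuggu
miR-195 variant: uAGCAGCAcagaaauguugg

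The second set belongs to the miR-17-92 group and its paralogs. Here miR-17-5p, miR-106a and a variant of miR-20a-5p share a seed, and miR-19b has its own. miR-101 and miR-208b follow, since both fell to background at P5.
miR-17-5p: cAAAGUGCuuacagugcaggua
miR-106a: aAAAGUGCuuacagugcaggu
miR-20a-5p: uAAAGUGCuuauagugcaggaaa
miR-19b: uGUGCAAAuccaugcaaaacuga
miR-101: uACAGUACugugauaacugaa
miR-208b variant: uAAGACGAacaaaagguu

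The third set holds 6 of the rises, of which most are anonymous, and a pair of falls that share 18 bases and both end in cca.
PC-3p-62940_51: cCUGGCGGagcgcugagaaga
PC-5p-51320_64: cUAGAGGAaguaaaagucg
PC-5p-13703_301: cAGGGAAUuguuuaaguagaacuucagc
PC-5p-157221_17: gGAUGGUUuagugaggc
miR-4448 variant: gGCUCGUUggucuaggg
miR-1973: uGACCGUGcaaagguagc
miR-2478: gUAUCCCAcuucugacacca
PC-3p-8998_497: uCAUCCCAcuucugacacca

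Across birth, 26 sequences rose (0.841 % of those tested) and 30 fell (0.971 %) with limma at a Benjamini-Hochberg adjusted p of 0.05 or less over 3091 sequences, while 191 were higher and 228 lower at an unadjusted p under 0.05. Counted as names, with 1 sequence a name, 19 rose and 19 fell (0.868 % each way). The arrays of the 2 ages did not overlap for any of the 26 rises or the 30 falls. Passing the test nearly fixes this, and over all 3091 sequences the arrays also did not overlap for 283 that were higher (9.16 %) and 367 that were lower (11.9 %) at P5. Where both ages were above background, sizes ran from 1.53 to 4.42 on the log2 scale among the 21 rises and from 1.38 to 4.37 among the 16 falls. Over the 775 bright sequences the median difference was 0.01, and the 95 % interval of a difference reached a median of 0.88 to either side. Changes below that size were mostly not detectable with 3 hearts an age. The interval carries no adjustment for the 3091 sequences and the smallest size called was 1.38, so larger changes could also be missed.

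Of the 3091 sequences tested, 728 carried a name without a variant suffix, here called exact, 1456 were variants and 907 were anonymous. Exact names can include predicted arms. Of the 30 falls, 11 were exact, 17 were variants and 2 were anonymous. Of the 26 rises, 4 were exact, 14 were variants and 8 were anonymous. Among the named ones 10 were predicted other arms of a hairpin, the exact mir-1973-p5 included. Sequences that share a run of at least 12 bases can bind the same RNA, and joined in this way the falls made 18 groups and the rises 19. Pieces of the same longer RNA that do not overlap stay apart under this rule, so the groups need not be separate RNAs. At the dimmer age, 14 falls and 5 rises were under 32 units on all 3 arrays, the level taken as not above background, and a fold of at least N is for these the brighter age's geometric mean over 32 units. Their fitted log2 differences depend on the pseudocount and are not bounds. mir-4426-p3 has no bound, since its P5 geometric mean was also under 32 units.

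Each call was repeated without each of the 12 arrays in turn. The falls of both miR-19b sequences and the rises of PC-5p-13703_301 and PC-5p-157221_17 stayed past the test every time, that is 2 falls and 2 rises, and every other call ended without at least 1 of the arrays. Without P5 replicate 3, 2 rises and 2 falls passed in all, the fewest of any array left out. P5 replicate 3 was the lowest P5 heart in 18 of the 30 falls and the highest in 18 of the 26 rises. No called sequence changed direction under any of the 30 alternatives.

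**Figure D1:**
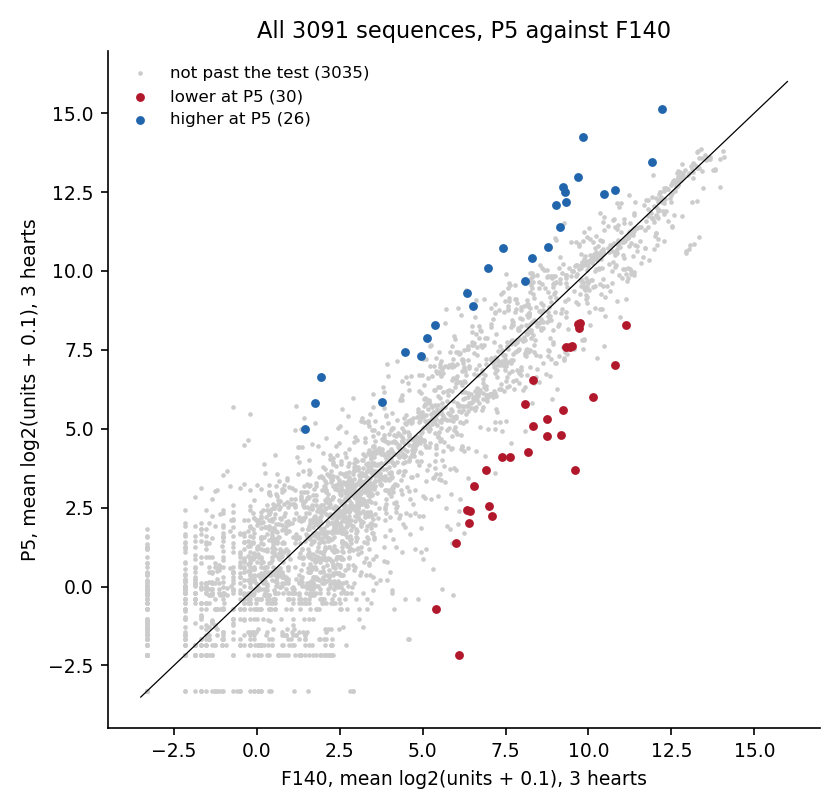
Mean log2(units + 0.1) of the 3 P5 hearts (vertical axis) against the 3 F140 hearts (horizontal axis), 1 point for each of 3091 sequences, with the line of equal level. The 30 sequences lower at P5 (red) and the 26 higher at P5 (blue) lie off the line, and the band of values widens towards the dim end.

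The miR-424 cluster held 3 of the names that fell, of which miR-424-5p and miR-322-5p are one miRNA. This cluster lies on the X chromosome in mammals, and miR-424 and its cluster partner miR-503 restrain cell cycle regulators in mouse muscle cells. Of its 11 names none rose, with a median log2 difference of -2.73 against 0.0 over all 2190 names. All 7 of its names with at least 32 units at the brighter age were lower at P5, from -4.64 to -2.13, where 296 of all 551 names at that level were lower and 255 higher.

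miR-424-5p read 1696, 1613 and 2054 units in the F140 hearts and 155, 170 and 83 units in the P5 hearts. Every fetal heart was above every lamb. The means were 1788 ± 234 and 136 ± 46.5 units (SD, n = 3), a 13.7-fold fall (log2 difference -3.77, SE 0.60, adjusted p = 0.0089). miR-322-5p, under its rodent name, read 1090, 330 and 537 units at F140 and 22, 34 and 29 at P5, again without overlap. Its log2 difference was -4.37 (SE 0.70, adjusted p = 0.0089), and a variant of the same length gave -4.14 (adjusted p = 0.041). Since miR-424-5p and miR-322-5p share 20 bases, their signals cannot be told apart. miR-542-3p, from the same cluster, read 78, 61 and 56 units before birth and 3, 5 and 1 after, at least 2.01-fold lower (adjusted p = 0.015). miR-450b had 227, 103 and 128 units at F140 and 13, 26 and 5 at P5, which missed the test (log2 difference -3.58, adjusted p = 0.061). The call of miR-424-5p ended without P5 replicate 3 (adjusted p up to 0.062 with 1 array left out), that of miR-322-5p without F140 replicate 1 or P5 replicate 1 or 3, and that of miR-542-3p without F140 replicate 1 or 2 or P5 replicate 1 or 3.

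At the earlier and later ages miR-424-5p read 135 ± 128 units at F91 and 104 ± 60.4 at P173 (SD, n = 3). Its F140 level thus stood above all 3 other ages, by 4.17 on the log2 scale over F91 (adjusted p = 0.0027), a comparison that shares the F140 hearts with the one across birth.

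The miR-15 family, which begins with the same seed and holds back mitosis in the newborn mouse heart, did not move as 1 group. None of its 14 names passed in either direction, with a median of -0.22. miR-15b read 1000, 1229 and 1074 units at F140 and 1087, 1192 and 1629 at P5 (log2 difference 0.23, 95 % interval -0.44 to 0.89), and its arrays overlapped. miR-16b gave 0.23 (95 % interval -0.39 to 0.85). miR-15a read 610, 502 and 435 units before birth and 169, 201 and 71 after, without overlap, yet with an interval from -3.53 to -0.32 it missed the test (adjusted p = 0.25). The variant of miR-195 lay at 98, 67 and 88 units and then at 15, 12 and 7 (log2 difference -2.93, adjusted p = 0.0501), just outside the threshold. PC-5p-9731_453, which contains that sequence, read 213, 107 and 205 units at F140 and 25, 25 and 8 at P5, and fell at least 5.23-fold (log2 difference -3.28, SE 0.61, adjusted p = 0.015). These are values just outside and inside the test for nearly the same letters. The call of PC-5p-9731_453 ended without F140 replicate 1 or 3 or P5 replicate 1 or 3. Over all 22 sequences with the seed AGCAGCA, 18 read at least 32 units at the brighter age, 12 of these were lower at P5 and 4 fell past the test, with differences between -4.37 and 0.32.

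The miR-17-92 group, known for driving proliferation in many tissues including the mouse heart, held several of the falls. Of 15 names 3 fell and none rose, with a median of -0.7, and all 6 names of at least 32 units were lower at P5. Of the 15 names of its paralogs 1 fell and none rose, with a median of -1.03 and 8 of 8 such names lower, against the 296 of 551 over all names. These counts are of names and not of separate miRNA. For example, miR-20a and miR-20a-5p, miR-92a and miR-92, and miR-25 and miR-25-3p are nearly the same sequences.

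miR-19b read 397, 258 and 242 units in the fetuses and 25, 26 and 11 in the lambs, where it was not above background. The fall was at least 9.11-fold (log2 difference -3.91, SE 0.50, adjusted p = 0.0031), and a variant with 22 of its bases gave -3.99. With any 1 array left out the adjusted p of miR-19b stayed at or under 0.034. At F91 it was 18.7 ± 8.33 units and at P173 38.3 ± 3.79 (SD, n = 3), so its level near term was the highest of the 4 ages.

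miR-17-5p read 769, 515 and 645 units at F140 and 215, 244 and 135 at P5 (log2 difference -1.72, SE 0.39, adjusted p = 0.041). miR-106a, which shares 20 bases with it, read 877, 545 and 778 and then 238, 264 and 124 units (-1.86, adjusted p = 0.041). A variant of miR-20a-5p read 385, 225 and 229 and then 67, 70 and 35 units (-2.30, adjusted p = 0.043). P5 replicate 3 was the lowest heart for all 3, and the groups did not overlap. Each of these 3 calls ended without any 1 of 10 of the 12 arrays, with adjusted p up to 0.21, and none of them passed when F140 and P5 were fitted alone (adjusted p = 0.068 for each). The 14 sequences with the seed AAAGUGC included 8 of at least 32 units, all 8 lower at P5, from -2.30 to -0.84.

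Further members of these clusters did not pass. The exact bovine miR-20a read 566, 360 and 471 units at F140 and 119, 159 and 55 at P5 (log2 difference -2.17, adjusted p = 0.055). miR-92a read 1427, 1899 and 1701 units at F140 and 1128, 768 and 1243 at P5 (log2 difference -0.70, adjusted p = 0.37). miR-25 gave -0.64 (adjusted p = 0.22), whereas miR-106b, its neighbour in the RefSeq annotation of the sheep genome ARS-UI_Ramb_v3.0, read 402, 348 and 339 and then 132, 154 and 36 units (-2.0, adjusted p = 0.099). miR-17 and miR-19b are likewise neighbours there. Whether neighbours differed in their change was not tested.

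**Figure D2:**
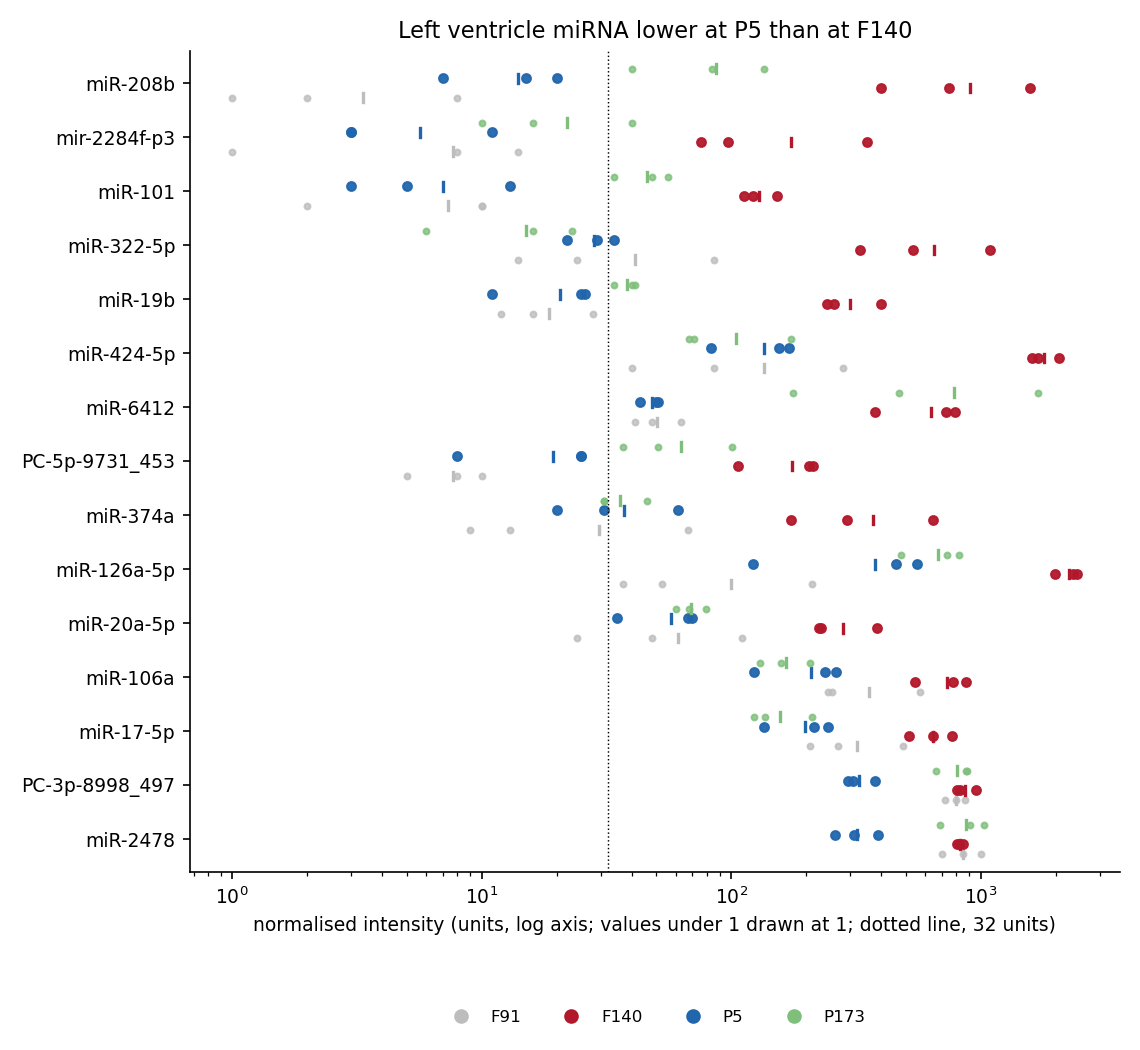
Normalised intensity (log axis) of the 15 names lower at P5 that averaged at least 100 units at F140, ordered by size of the fall, with 1 point a heart and a tick at the mean of the 3 hearts of each age. The F140 hearts (red) lie to the right of the P5 hearts (blue) in every row, and for most names the F91 hearts (grey) are also low.

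Of the miRNA that sit inside myosin genes, miR-208b fell. It lies in an intron of the slow, beta myosin heavy chain gene and miR-499 in that of a related myosin gene. Of 10 names 1 fell, with a median of -2.71, and 6 of 7 names of at least 32 units were lower at P5. The exception was miR-208a-5p, which read 0, 6 and 1 units at F140 and 33, 49 and 54 at P5 without passing the test (log2 difference 5.67, adjusted p = 0.2, and 0.47 with values under 32 units set to 32). Among the 6 lower names, miR-499, miR-499-5p and miR-499b-5p overlap in sequence and are not separate evidence.

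miR-208b read 1572, 399 and 750 units in the F140 hearts and 15, 20 and 7 in the P5 hearts. All 3 lambs were under the background level, and the fall was at least 24.3-fold (log2 difference -5.91, SE 1.20, adjusted p = 0.026). Over its 3 sequences the difference ran from -5.91 to -3.84, and the other 2 missed the test. The call was lost without any 1 of the 6 hearts (adjusted p up to 0.14). At F91 miR-208b had 3.33 ± 4.16 units and at P173 86.7 ± 48.1 (SD, n = 3), which placed the fetus near term above each other age.

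miR-499 read 9350, 7320 and 9231 units before birth and 2640, 2995 and 768 after. The groups lay apart, with P5 replicate 3 lowest by a wide margin. It missed the test (log2 difference -2.23, 95 % interval -3.68 to -0.78, adjusted p = 0.12).

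The muscle miRNA miR-1 and miR-133 are transcribed in pairs from shared precursors and act with the muscle transcription factors SRF and MEF2. Of 13 names 1 fell and none rose, with a median of -0.36. miR-1 read 15364, 13055 and 20106 units at F140 and 9107, 10689 and 2744 at P5 (log2 difference -1.31, 95 % interval -2.77 to 0.16, adjusted p = 0.44). miR-133a-3p lay the other way, at 8800, 11478 and 12097 and then 14692, 16290 and 13910 units (0.48, 95 % interval -0.03 to 0.99, adjusted p = 0.39). miR-133b gave 0.47 (adjusted p = 0.37). The groups did not overlap for any of the 3, and none passed. The name that fell was miR-1-5p, the opposite strand of miR-1, here measured by a variant. It read 99, 112 and 75 and then 11, 17 and 4 units, at least 2.94-fold lower (adjusted p = 0.035). A variant of miR-1-2-5p, with 21 bases in common with it, also fell, at least 2.51-fold (adjusted p = 0.03). The exact miR-1-2-5p read 100, 163 and 12 and then 13, 8 and 4 units. Its arrays overlapped and it did not pass (log2 difference -2.94, adjusted p = 0.31). A variant of miR-1-1-5p did not pass either (-4.54, adjusted p = 0.088). The call of miR-1-5p ended in 17 of the 30 alternatives, each of the 6 hearts among them, and after each array's trend with GC content was taken out (log2 difference -2.68, adjusted p = 0.13).

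miR-101, which represses the chromatin enzyme EZH2 in human cells, fell as well. It read 153, 122 and 113 units at F140 and 5, 13 and 3 at P5. The lambs were under background, at least 4.01-fold lower (log2 difference -4.44, SE 0.73, adjusted p = 0.0089). miR-101c, with 19 shared bases, was at least 2.67-fold lower (adjusted p = 0.015). The call of miR-101 ended without F140 replicate 1 or P5 replicate 1 or 3 (adjusted p up to 0.062). miR-101 stood at 7.33 ± 4.62 units at F91 and 46.0 ± 11.1 at P173 (SD, n = 3). miR-26a, which shares that target in human cells, read 11941, 12237 and 14959 and then 13590, 13719 and 10373 units, with a narrow interval about 0 (log2 difference -0.06, 95 % interval -0.59 to 0.47). miR-26b-5p, with the same seed, read 5634, 4577 and 4772 and then 2791, 2434 and 1132 units. Its arrays did not overlap, and it did not pass (-1.33, adjusted p = 0.39).

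Among miRNA of vessels and connective tissue, both arms of miR-126 were lower in the lamb. miR-126 is made in endothelial cells from an intron of EGFL7. The arm miR-126a-5p read 2445, 1984 and 2346 units at F140 and 556, 459 and 122 at P5 (log2 difference -2.84, SE 0.62, adjusted p = 0.037). The 3p arm read 7271, 6044 and 8703 and then 4476, 4053 and 2197 units, without overlap, and did not pass (-1.09, adjusted p = 0.28). P5 replicate 3 was lowest in both. The 5p call ended in 18 of 30 alternatives, among them any 1 of the 6 hearts left out.

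None of the 8 fibroblast names passed by its chosen sequence, with a median of -1.44. miR-21, known from cardiac fibroblasts, read 1043, 765 and 891 units before birth and 254, 377 and 119 after (log2 difference -1.99, adjusted p = 0.13). miR-214, from the same list, was not lower. It read 1491, 1579 and 2893 and then 1951, 2359 and 1727 units (0.07, adjusted p = 0.97). A variant of miR-199a-5p fell from 710, 607 and 798 to 192, 267 and 137 units (-1.87, adjusted p = 0.041), while the exact sequence gave -1.81 (adjusted p = 0.061). The call of the variant ended in 18 of the 30 alternatives, among them each of the 6 hearts. None of the 5 smooth muscle names, 12 leukocyte names or 7 red cell names passed by its chosen sequence, with medians of -0.44, -1.02 and -0.69. A short variant of leukocyte miR-142-3p fell, from 87, 48 and 18 units to 2, 0 and 1, which is at least 1.32-fold (adjusted p = 0.0466) and was lost in 21 of the 29 alternatives that give it a value, among them each of the 6 hearts.

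Other named falls belong to no family above. miR-374a read 643, 173 and 292 units at F140 and 31, 61 and 20 at P5 (log2 difference -3.24, adjusted p = 0.041), lost in 17 of the 30 alternatives including each of the 6 hearts, while miR-374b gave -1.11 (adjusted p = 0.48). miR-301a read 102, 173 and 18 units and then 0, 1 and 0, a bound of at least 2.14-fold that is far below the fitted log2 value of -8.26 (adjusted p = 0.041). With values under 32 units set to 32 the difference was -1.37 (adjusted p = 0.33). The call of miR-301a ended in 18 of 29 alternatives, among them each of the 6 hearts. A predicted arm, mir-2284f-p3, read 349, 97 and 76 and then 11, 3 and 3 units, at least 4.29-fold lower (adjusted p = 0.028), and its call ended without F140 replicate 1 or 2 or any P5 heart and with the GC trend taken out (adjusted p = 0.075).

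A further set fell at P5 and was high again in the older lambs. miR-6412 read 724, 379 and 789 units at F140, 51, 43 and 50 at P5 and 782 ± 805 at P173 (SD, n = 3). All 4 of its sequences fell, from -3.65 to -3.22, and share at least 17 bases. The drop was 12.5-fold (log2 difference -3.65, SE 0.62, adjusted p = 0.011), and the rise from P5 to P173, which shares the P5 hearts, was 3.44 (adjusted p = 0.014) with a wide spread at P173. Its call ended without F140 replicate 1 or P5 replicate 1 or 3.

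miR-2478 read 849, 817 and 804 units at F140 and 262, 312 and 387 at P5, and PC-3p-8998_497, with 18 of the same bases, read 961, 827 and 802 and then 293, 307 and 378. Hearts of an age were close together, and the falls were small and tight (log2 differences -1.38 and -1.41, adjusted p = 0.026 and 0.015). P5 replicate 3 was here the highest lamb. miR-2478 had 851 ± 155 units at F91 and 874 ± 172 at P173 (SD, n = 3), so P5 was the only low age. A variant of miR-5100 read 292, 359 and 318 units at F140 and 109, 91 and 84 at P5 (log2 difference -1.77, adjusted p = 0.031). Unlike miR-2478 it was also low at F91, at 116 ± 38.9 units, and it stood at 475 ± 198 at P173 (SD, n = 3). The calls of miR-2478 and miR-5100 ended without any 1 of the 6 hearts, and that of PC-3p-8998_497 without any of them but F140 replicate 3. Entries such as these resemble pieces of tRNA or rRNA, and over the 14 names listed as overlapping other small RNA, 2 rose and 1 fell with a median of -0.29.

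Of the 30 falls, 24 had also risen from F91 to F140 past the test, and 7 rose again from P5 to P173. Of the 26 rises, 2 had fallen from F91 to F140, and none fell again from P5 to P173 past the test. These comparisons share the F140 or the P5 hearts with the one across birth, which makes opposite signs likelier, so the counts are given as a description.

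**Figure D3:**
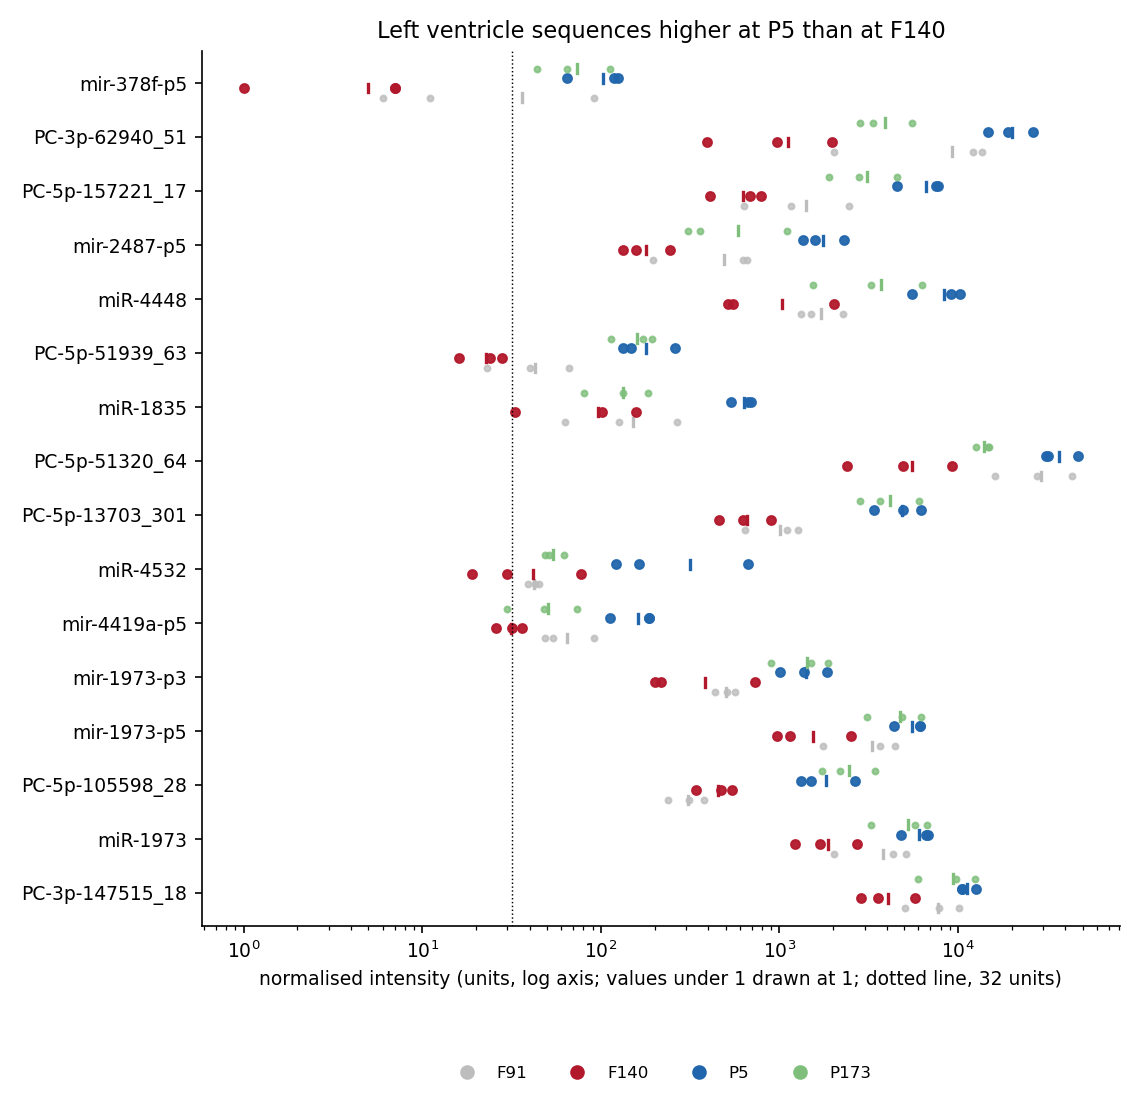
Normalised intensity (log axis) of the 16 names higher at P5 that averaged at least 100 units there, ordered by size of the rise, with 1 point a heart and a tick at the mean of the 3 hearts of each age. The P5 hearts (blue) lie to the right of the F140 hearts (red) in every row.

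Of the 26 rises, 8 were of anonymous sequences. These were not matched to any longer RNA, so they are not known to be separate transcripts. PC-3p-62940_51 read 394, 971 and 1973 units in the F140 hearts and 19112, 14789 and 26422 in the P5 hearts. The brightest fetus was far below the dimmest lamb, a 21.5-fold rise (log2 difference 4.42, SE 0.67, adjusted p = 0.0068). PC-5p-51320_64 read 2400, 4917 and 9233 and then 31216, 31936 and 47039 units (2.92, SE 0.44, adjusted p = 0.0068). In both, F140 replicate 3 and P5 replicate 3 were the highest of their age. At F91 they were already bright, at 9278 ± 6326 and 29206 ± 13868 units (SD, n = 3), and at P173 they stood at 3887 ± 1420 and 14083 ± 1205, so F140 was the low age of the 4. Both calls ended without P5 replicate 3 (adjusted p up to 0.062).

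PC-5p-13703_301 read 459, 903 and 626 units at F140 and 6208, 3379 and 4956 at P5. It rose 7.37-fold (log2 difference 2.88, SE 0.38, adjusted p = 0.0031) and stayed past the test with each array left out (adjusted p up to 0.0463). PC-5p-157221_17 read 410, 684 and 787 and then 7704, 4548 and 7526 units, a 10.6-fold rise (3.41, SE 0.47, adjusted p = 0.0035) with the same upper bound of 0.0463. In the older lambs they remained bright, at 4184 ± 1672 and 3096 ± 1354 units (SD, n = 3).

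The other 4 anonymous rises differed in size. PC-5p-51939_63 read 16, 24 and 28 units before birth and 133, 147 and 260 after, at least 5.38-fold higher (adjusted p = 0.0089). PC-5p-105598_28 gave a log2 difference of 1.97 (adjusted p = 0.015), and PC-3p-147515_18, at 3559, 2861 and 5718 and then 10551, 10553 and 12627 units, gave the smallest rise, of 1.53 (adjusted p = 0.041). PC-5p-225739_11 read 1, 3 and 11 units at F140 and 36, 43 and 114 at P5, at least 1.76-fold higher (adjusted p = 0.0483). F140 replicate 1 and P5 replicate 3 each ended all 4 of these calls when left out, with adjusted p up to 0.27.

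Among mature miRNA names that rose, miR-4448 had the largest difference. It begins with letters that also begin a proline tRNA of mammals. A variant of it read 548, 516 and 2024 units at F140 and 9113, 5540 and 10261 at P5 (log2 difference 3.27, SE 0.55, adjusted p = 0.01). F140 replicate 3 stood above the other fetuses, yet below every lamb. Of its 6 sequences 4 rose, and all 6 were higher at P5, from 2.57 to 3.67. The call of that sequence ended without F140 replicate 1 or 2 or P5 replicate 1 or 3 (adjusted p up to 0.063), and when the 2 ages were fitted alone (0.068).

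miR-1973, whose letters also lie in the mitochondrial large ribosomal RNA, read 1689, 1227 and 2711 units at F140 and 6814, 4794 and 6595 at P5 (log2 difference 1.75, SE 0.40, adjusted p = 0.041). The 2 sequences of this name and 1 each from its predicted 5′ and 3′ arms rose, from 1.75 to 2.26. They overlap by 13 to 18 bases and so are not separate evidence. The call of miR-1973 ended without any 1 of 8 arrays, F140 replicates 1 and 2 and the 3 P5 hearts among them (adjusted p up to 0.19). At P173 miR-1973 was at 5245 ± 1781 units and at F91 at 3819 ± 1604 (SD, n = 3).

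Of the remaining rises most are predicted arms or variants. mir-2487-p5 read 134, 158 and 243 units and then 1584, 1364 and 2289 (log2 difference 3.30, adjusted p = 0.0089), and its call ended without F140 replicate 1 or P5 replicate 1 or 3. mir-378f-p5 read 7, 7 and 1 and then 65, 119 and 125 units, at least 3.09-fold higher (adjusted p = 0.027). It has the seed of miR-378 but is not among the miR-378 names counted below. A variant of miR-1835 read 101, 33 and 157 and then 539, 664 and 698 units (2.96, adjusted p = 0.026). The last 2 calls ended in 15 alternatives each, F140 replicates 1 and 2 and each P5 heart among them, and that of miR-1835 also with the GC trend taken out (1.98, adjusted p = 0.075). miR-4532, the most GC-rich of the rises at 94.1 % GC, read 30, 19 and 77 units and then 667, 121 and 164 (2.74, adjusted p = 0.043). The difference was 1.12 (adjusted p = 0.61) with each array's trend with GC content taken out, and the call ended in 20 of the 30 alternatives, among them F140 replicates 1 and 2 and each P5 heart. The other names that rose were mir-4419a-p5, mir-218-1-p5 and mir-4426-p3, and single variants of mir-1246-p5, mir-1246-p3 and mir-1285-p5 also rose.

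Families often studied in the heart lay near 0 or did not pass. None of the 10 miR-378 names passed, but all 10 were higher at P5, from 0.18 to 0.64, with a median of 0.28. Most of the 10 differ by few bases and can bind the same RNA, so they are not separate evidence. This direction did not hold for every name, since miR-378a-5p and miR-378a were at -0.06 and -0.11 with the GC trend taken out, and miR-378c was at -0.01 without F140 replicate 1. None of the 15 miR-30 names passed (median 0.23), and the lowest of them, miR-30e-5p, read 5835, 6162 and 6460 units and then 3647, 4005 and 2841 (log2 difference -0.83, adjusted p = 0.12). None of the 22 let-7 names, regulators of developmental timing, passed (median -0.17). let-7a-5p was at 0.20 (95 % interval -0.31 to 0.70), whereas let-7i read 2717, 3385 and 3503 and then 1858, 1792 and 794 units (-1.20, adjusted p = 0.24).

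The miR-181, miR-320 and miR-29 families also gave no call, among 8, 6 and 7 names. All 6 miR-181 names of at least 32 units were lower at P5, from -0.78 to -0.40. The 5 such miR-320 names lay between -0.21 and -0.03. Several miR-181 names and the miR-320 names share most of their bases, so they are not separate evidence. miR-210, which low oxygen induces, had 3 names, and all were under 32 units on average at both ages, too dim for a comparison. Of 112 names of the large imprinted miRNA cluster none passed, with a median of -0.17, and 26 of the 31 with at least 32 units were lower at P5, against 296 of 551 over all names. miR-376c-3p from that cluster read 909, 787 and 1139 units and then 278, 327 and 136 (log2 difference -2.01, adjusted p = 0.087).

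**Figure D4:**
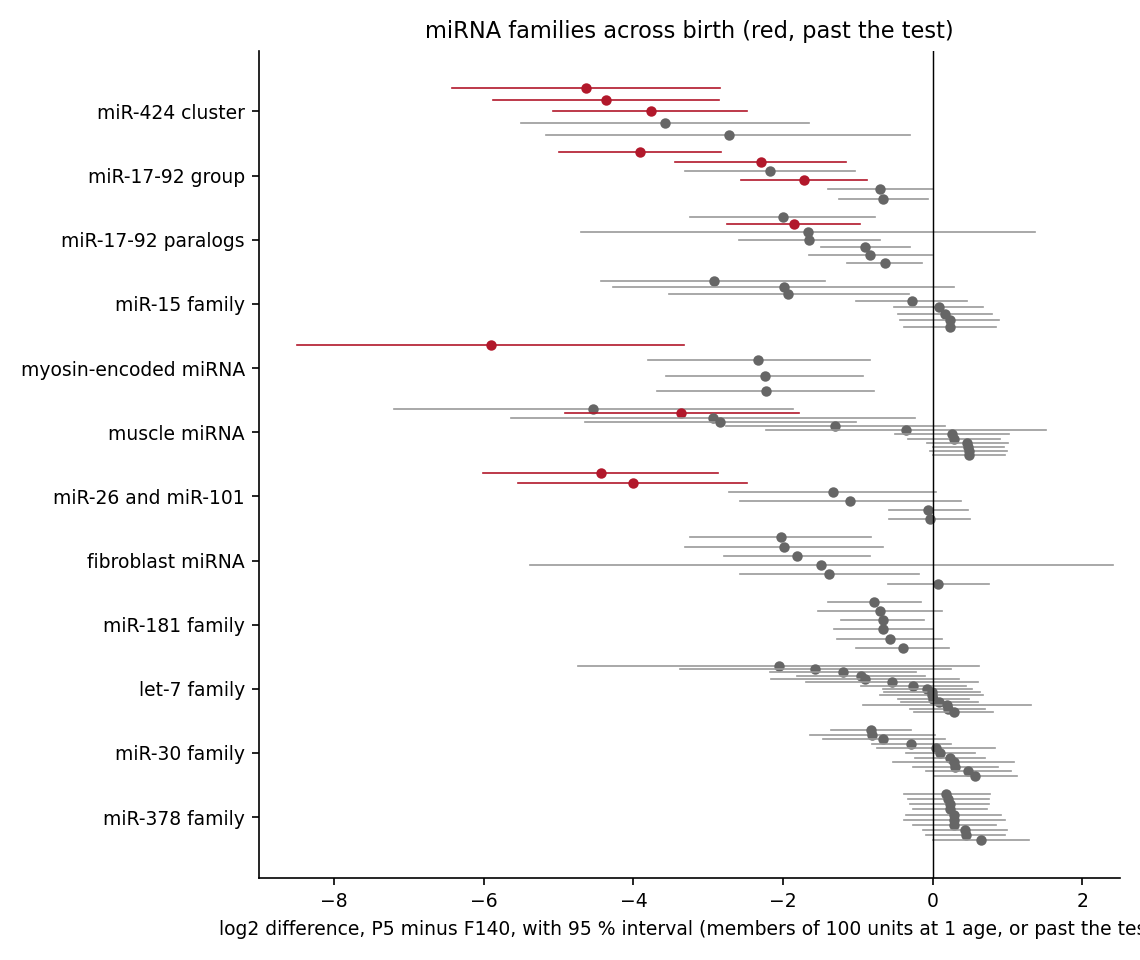
Log2 difference between P5 and F140 (horizontal axis) with its 95 % interval for members of 12 miRNA lists that averaged at least 100 units at 1 of the ages or passed the test, 1 point a name. Members past the test (red) lie to the left of 0, in the miR-424, miR-17-92, paralog, myosin, muscle and miR-101 rows.

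GC content moved with the direction of change. The median GC content was 37.8 % among the falls, 52.6 % among the rises and 47.4 % over all 3091 sequences. Across the 775 bright sequences the log2 difference rose with GC content (r = 0.32, over sequences of the same 6 arrays, which are not independent). The 113 bright sequences under 40 % GC had a median difference of -0.81, with 7 falls and 2 rises, and the 109 of 60 % or more had a median of 0.25, with 7 rises and no fall. The trend of log2 level per 10 % GC was -0.47, -0.33 and -0.17 in the F140 hearts and 0.05, -0.08 and 0.14 in the P5 hearts, without overlap. With each array's trend taken out, 26 of the 30 falls and 22 of the 26 rises were still called, and all kept their direction. The 4 falls lost were miR-1-5p, the variant of miR-142-3p (-5.47, adjusted p = 0.1) and both sequences of mir-2284f-p3 (-4.22 and -3.75, adjusted p = 0.075 and 0.087). The 4 rises lost were miR-4532, the variant of miR-1835, mir-4419a-p5 (1.71, adjusted p = 0.09) and mir-4426-p3, which lay just outside the threshold. miR-19b was then at -3.55 (adjusted p = 0.0027), miR-424-5p at -3.37 (adjusted p = 0.0027) and PC-5p-157221_17 at 3.27 (adjusted p = 0.0027).

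**Figure D5:**
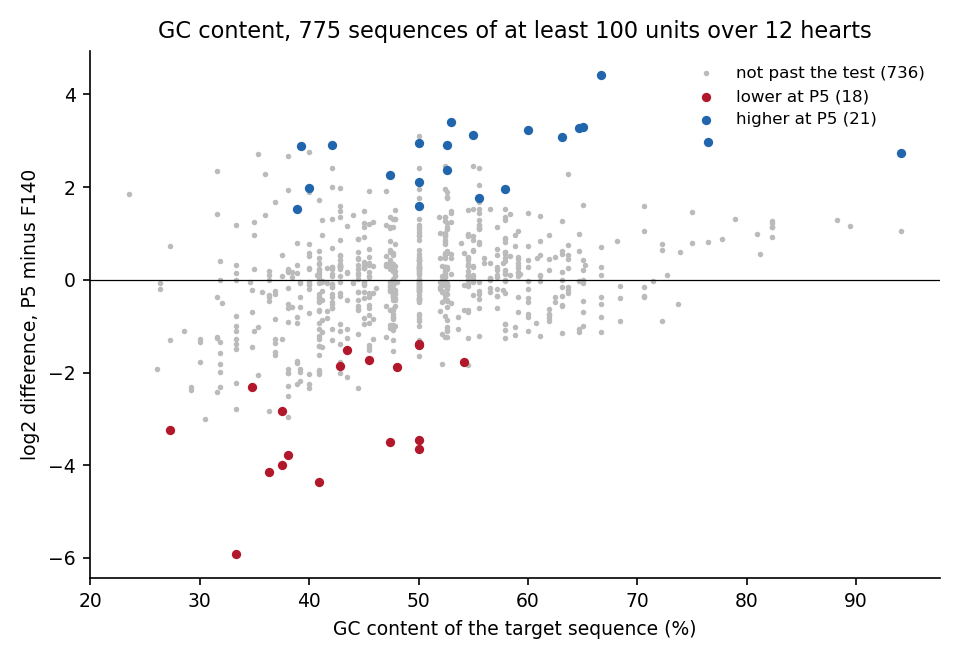
Log2 difference between P5 and F140 (vertical axis) against GC content of the target sequence in percent (horizontal axis) for the 775 sequences that averaged at least 100 units over 12 hearts. Falls (red) gather at low GC content and rises (blue) at higher GC content, and the grey points tilt the same way.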

How the data were processed

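Total RNA of the left ventricle (miRNeasy kit) had been hybridised by a service provider to a custom single-colour array with 10044 spots and 3 to 6 spots a sequence. The authors deposited scanner intensities for each spot, a table of intensity values with decimals, and a table of the same values rounded to whole numbers, here treated as a score on a linear scale. Per the file headers these values are lowess-normalised, and they had been background corrected and combined over spots. The table of whole numbers holds 3146 rows, of which 55 are controls. A further 7 sequences of the array were not analysed here. Neighbouring genes were read from RefSeq's sheep annotation (ARS-UI_Ramb_v3.0).

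Values were used as log2(value + 0.1) in a linear model over all 12 arrays, which share 1 estimate of the spread (R 4.3.3, limma 3.58.1, lmFit and eBayes with trend). The contrast was P5 minus F140, with Benjamini-Hochberg adjustment over 3091 sequences and calls at 0.05. Log2 differences of sequences near 0 units depend on the pseudocount and can be inflated. Tables and figures were made with Python 3.11.15, numpy 2.4.6, pandas 2.3.3 and matplotlib 3.10.9, and the fit was tested on simulated data. Precision is limited by the number of arrays.

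Names were formed by removing the species prefix and variant suffix, with 1 sequence a name: exact ovine, then exact bovine, then any exact one, then variants, ties by level. The same miRNA can therefore stand under several names, for example with and without an arm suffix. The text names every called name with a mean of 100 units or more at 1 age, up to 15 each way by size, and the other called names, members of the miRNA lists and other sequences of a named miRNA, with some values chosen after they were seen. The comparison, members and lists were chosen with earlier results of these data known. Alternatives changed the arrays fitted, replicate block, GC trend, pseudocount, dim values, filter, variance model, array weights, table, background correction, scaling and co-twins, and left out each array. No label pairs replicate numbers across ages. Deviations of same-numbered arrays correlated at -0.140, -0.306 and 0.088, and those of other pairs of arrays at -0.265 to 0.403. With 3 arrays an age these values cannot show whether animals are related.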

Additional observations from a re-analysis of the deposited data

How the results depend on the processing

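The counts of rises and falls depended on the variance estimate and on single arrays, whereas directions did not. Against 26 rises and 30 falls, the F140 and P5 arrays fitted alone gave 7 and 18, and eBayes without a variance trend gave 1 and 5. The unmoderated ANOVA contrast gave 6 and 9, array weights 58 and 81, scanner values with normexp and quantile normalisation 44 and 92, and P5 replicates 1 and 2 averaged as 1 sample 8 and 8. Setting values under 32 units to 32 gave 14 rises, 10 of them among the 26, and 32 falls, 15 of them among the 30. A pseudocount of 1 gave 53 falls and a filter on dim sequences 52 falls. Leaving out 1 array gave 2 to 51 rises and 2 to 77 falls, lowest without P5 replicate 3 and highest without F91 replicate 1. The cause of these shifts was not tested.

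With the replicate number as a block, which the labels do not support as a pairing, the 12 arrays gave 26 rises and 32 falls, and F140 and P5 alone gave 0 and 0 with limma (189 and 258 at an unadjusted p under 0.05), or 10 and 10 once the GC trend was also taken out. 3 alternatives were chosen after seeing the data. Without P5 replicate 2 and F140 replicate 2 together there was 1 rise and 0 falls with limma (352 sequences, either way, at an unadjusted p under 0.05), without F91 replicates 1 and 3 and P173 replicate 2 there were 45 and 76, and the 2 ages alone with the GC trend taken out gave 39 rises and 71 falls.

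Over 203 named sequences and 30 alternatives, 5267 values stayed on their side of the threshold, 699 calls were lost and 121 gained. No called difference reversed, while 130 of the values, from 37 uncalled sequences, changed sign. Sequences under 32 units have no reliable order at any setting.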
